A study of Caenorhabditis elegans with 24 samples.

Results

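The genes described here are those of the mitochondrial chromosome of Caenorhabditis elegans, chosen as every row of the 2 deposited count tables whose chromosome is MtDNA. They are 36 of 46778 genes, namely 12 protein-coding genes, 2 ribosomal RNA (rRNA) genes and 22 transfer RNA (tRNA) genes. RNA of whole animals was sequenced in 24 libraries, with 3 libraries for each of 8 groups, to compare wild type with mutants of ceh-60, a gene for a PBX-type homeodomain transcription factor. Wild type of strain N2 and ceh-60(ok1485) animals were collected as day 1 and as day 4 adults, and these 12 libraries make up the first table. The second table holds 12 libraries of day 1 adults with the genotypes pqm-1(ok485), pqm-1(rhd90), ceh-60(ok1485); pqm-1(ok485) and ceh-60(ok1485); pqm-1(rhd90), the last of these being called the ok485 and the rhd90 double mutant according to the pqm-1 allele. pqm-1 encodes a zinc finger transcription factor. Each genotype is represented by 1 strain, the ceh-60 allele is the same in all ceh-60 groups, and no label says that the libraries of a group came from separate cultures, so p-values measure the spread between these libraries only.

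The mitochondrial genome is a small circle present in many copies per cell. It encodes core membrane subunits of the respiratory chain, together with the rRNAs and tRNAs needed to translate them inside the organelle, while the other subunits, the enzymes that copy and transcribe this genome and the proteins of its ribosome are encoded in the nucleus. In animals the circle is transcribed into long precursors from which the single RNAs are cut, so that the level of each RNA also depends on its processing and stability. C. elegans adults build many mitochondria in the germ line, the muscles and the intestine.

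All 36 genes lie on the plus strand between bases 1 and 13327 of MtDNA, with coordinates identical to those of the WBcel235 annotation. They are packed tightly: neighbouring genes are at most 18 bases apart, and 15 of the 36 share at least 1 base with a neighbour. The protein-coding genes were named by matching their positions to RefSeq. COX1 (7827 to 9428), COX2 (9649 to 10348) and COX3 (5678 to 6449) encode the catalytic core of complex IV, cytochrome c oxidase. CYTB (4504 to 5621) encodes cytochrome b of complex III and ATP6 (2634 to 3235) a proton channel subunit of ATP synthase. The other 7 protein-coding genes, ND1 (1763 to 2635), ND2 (3389 to 4269), ND3 (11356 to 11691), ND4 (6506 to 7808), ND4L (549 to 783), ND5 (11691 to 13272) and ND6 (113 to 549), encode membrane subunits of complex I, NADH dehydrogenase. The rRNA genes are those of the small (898 to 1593) and of the large (10403 to 11354) subunit of the mitochondrial ribosome.

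Libraries held 18809461 to 32598349 counts, and no library repeated another of its group. The transcript of ceh-60 was at 6.32 ± 0.66 CPM (counts scaled to library size; SD, n = 3) in wild type on day 1 and at 1.38 ± 0.43 in ceh-60 animals. That of pqm-1 was at 5.86 ± 0.29 in pqm-1(ok485) against 11.2 ± 0.37 in wild type, but at 14.3 ± 1.01 in pqm-1(rhd90), where the count is no check of the label. These pqm-1 values were scaled within each table, so table and genotype cannot be told apart when they are set against wild type. Marker lists of germ line, sperm, intestine, body wall muscle, pharyngeal muscle, epidermis and early embryo held no gene at 0 in every library. In each group of the second table, the library numbered 1 stood apart from those numbered 2 and 3, as described below, and the counts of mRNAs called and the summed shares in comparisons with that table are given with and without those 4 libraries. In the first table the ceh-60 library numbered 1 on day 1 held 0.640% nuclear rRNA counts, against 0.0323% to 0.424% in the other 23 libraries. CPM values below are scaled by the trimmed mean of M-values (TMM) within a table, so that levels are compared within a table.

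The 12 mitochondrial mRNAs together took 0.541% to 1.05% of a library's counts, with a median of 0.623%. The share on the 2 rRNA genes was far smaller, at 0.00201% to 0.00646%. Libraries were made with a kit for mRNA, which is known to capture RNA by its poly(A) tail, so these shares do not give the makeup of total RNA. The tRNA genes, 52 to 62 bases long, held 15 counts in all over the 24 libraries, against 3.808e+06 counts on the mRNA genes. In all, 14 of the 22 tRNA genes were at 0 in every library, no library held more than 2 counts on any of them, and none is named or compared here. For the smallest library a count of 0 allows a share of up to 1.6e-05% of counts, as far as counting error goes.

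Per length, the mRNAs fell into separate levels that did not follow the order of the genes on the circle. In wild type on day 1, COX1 was highest at 1365 ± 90.9 CPM per kilobase (SD, n = 3) and COX3 was next at 1168 ± 31.1. CYTB at 964 ± 27.4, COX2 at 935 ± 36.3 and ATP6 at 892 ± 48.7 followed, with overlapping libraries between neighbours in this order. Another 3 complex I genes came lower, ND1 at 323 ± 16.4, ND5 at 214 ± 14.7 and ND4 at 199 ± 7.6, of which ND5 and ND4 overlapped.

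The other 4 complex I mRNAs were an order of magnitude lower still. ND6 was at 26.3 ± 9.26 CPM per kilobase and ND3 at 23.4 ± 5.13, without a gap between them. ND2 was at 9.76 ± 2.46 and ND4L at 6.18 ± 3.02, again overlapping, and the rRNAs lay between these pairs at 15.6 ± 1.68 for the small and 14.2 ± 0.82 for the large rRNA.

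This split of 8 higher and 6 lower genes held in all 24 libraries: the lowest of the 8 was 2.96 to 16.5 times as high per length as the highest of the 6. ND1 and ND2, which are 873 and 881 bases long, differed by 27.2 to 53.4 times in level per length. The 4 low complex I mRNAs made up 0.205% to 0.593% of the mitochondrial mRNA counts of a library. ND4L, the shortest of the mRNA genes, had 10 to 51 counts per library, ND3, of 336 bases, had 81 to 221, and ND2 had 118 to 262, against 4872 to 8485 for ND1. Reads that overlapped 2 genes were left out in counting, and the part of this in the levels was not tested.

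**Figure D1:**
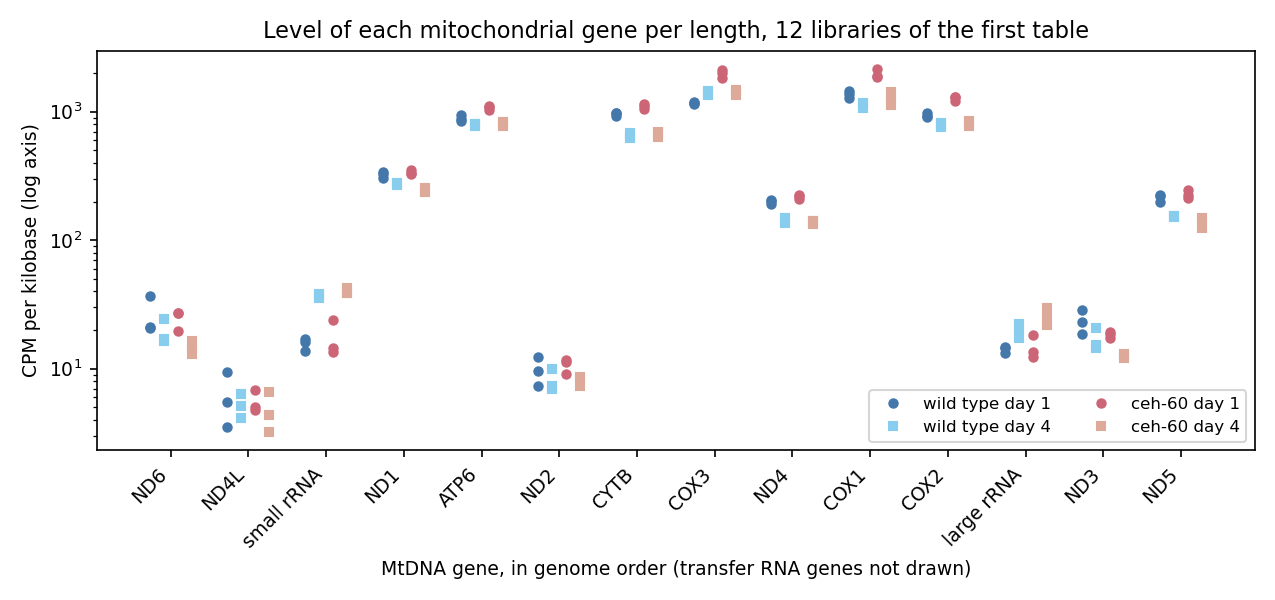
Level per length of 14 mitochondrial genes, in CPM per kilobase on a log axis, in the 12 libraries of the first table (points and squares are single libraries, coloured by group). ND6, ND4L, ND2, ND3 and both rRNAs lie below all other genes in every library, and the small rRNA is higher in the day 4 libraries than in those of day 1.

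The order of levels differed between groups at its top. COX1 was above COX3 in wild type on day 1 with no overlap, at 1365 against 1168 CPM per kilobase. On day 4 COX3 was above COX1 in wild type, at 1394 against 1128.5, again without overlap. In ceh-60 animals the pair overlapped on both days, with means of 1985 for COX3 and 1974 for COX1 on day 1.

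Loss of ceh-60 on day 1 came with more mitochondrial mRNA, and most of the rise was in complex IV. In edgeR's quasi-likelihood test with Benjamini-Hochberg adjustment, 5 of the 12 mRNAs were higher and 0 were lower in ceh-60 than in wild type, in a comparison that called 25.5% of all genes tested (16.1% as higher and 9.46% as lower). The 5 were the 3 complex IV genes, ATP6 and CYTB. The median log2 fold change of the 12 was 0.13, beside -0.03 over all genes.

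COX3 was at 927, 879 and 900.2 CPM in the 3 wild type libraries and at 1533, 1421 and 1643 in those of ceh-60. Its log2 fold change was 0.76 ± 0.06 (SE), a 1.70-fold rise with an adjusted p of 7.97e-07. COX1 was at 2322, 2204 and 2033 CPM in wild type and at 3452, 2988 and 3048 in ceh-60. For both genes every ceh-60 library was above every wild type library. The log2 fold change of COX1 was 0.53 ± 0.09 (adjusted p = 0.000514).

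COX2, the third core subunit of the complex, was at 684, 645 and 636 CPM in wild type and at 917, 843 and 916 in ceh-60, with a log2 fold change of 0.45 ± 0.05 (adjusted p = 2.31e-05). ATP6 was at 570.1, 527 and 514 CPM in wild type and at 659, 619 and 664 in ceh-60, a change of 0.27 ± 0.05 (adjusted p = 0.00154). The groups did not overlap for either gene. CYTB rose least, by 0.19 ± 0.05 (adjusted p = 0.015), from 1097, 1093 and 1042 CPM to 1276, 1178 and 1235. Its call was lost without wild type library 3 or without ceh-60 library 1, with adjusted p-values of up to 0.0706.

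The complex I mRNAs were not called. ND4 had a log2 fold change of 0.13 ± 0.05 with an adjusted p of 0.0541, although its groups did not overlap. ND1 was at 0.06 ± 0.05 and ND5 at 0.09 ± 0.07. Among the 4 low mRNAs, ND3 had the largest value at -0.36 ± 0.17 (adjusted p = 0.124), and the groups of all 4 overlapped.

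The summed share of the 12 mRNAs was 0.574% ± 0.031 of counts in wild type (SD, n = 3) and 0.821% ± 0.045 in ceh-60. All ceh-60 libraries were above all wild type libraries, and the two-sided exact permutation p was 0.1, the smallest that 3 against 3 allows. Counts of the 6 vitellogenin genes took 6.02% to 6.87% of the wild type libraries and 0.262% to 0.551% of those of ceh-60. With these genes left out of the total the shares were 0.614% and 0.825%, still without overlap.

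The makeup of the mitochondrial mRNA differed too. The 3 complex IV mRNAs made up 59.7% ± 0.32 of mitochondrial mRNA counts in wild type and 66.3% ± 0.44 in ceh-60. The 7 complex I mRNAs made up 14.5% ± 0.29 and 11.4% ± 0.25. Neither pair of groups overlapped (exact permutation p = 0.1 for each).

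Among the nuclear partners of these proteins, the same contrast called 5 of 7 complex IV subunits and 5 of 11 ATP synthase subunits as higher and 0 as lower. It called 16.1% of all genes as higher and 9.46% as lower. cox-6C was at 0.29 ± 0.05 on the log2 scale and cox-7C at 0.19 ± 0.05, both smaller changes than those of COX1, COX2 and COX3. The ATP synthase subunits with the smallest p were asb-2 at 0.61 ± 0.06 and asg-2 at 0.65 ± 0.06. Complex III had 2 of 7 higher, ucr-2.1 at 0.47 ± 0.08 and ucr-2.2 at 0.51 ± 0.07. Complex I had 2 of 30 higher, led by gas-1 at 0.58 ± 0.06, and 1 lower, nduf-2.2 at -0.19 ± 0.05. The median log2 fold changes of these lists were 0.13 for complex IV, 0.12 for ATP synthase, 0.11 for complex III and 0.06 for complex I.

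No tested gene for the expression of the mitochondrial genome was called higher in this contrast, which called 16.1% of all genes higher and 9.46% lower. Of 5 tested genes for its replication and transcription 0 were higher and 2 lower, the single-strand binding protein gene mtss-1 at -0.14 ± 0.04 and mma-1, the homologue of the RNA-binding protein LRPPRC, at -0.13 ± 0.04. Of 65 genes of mitochondrial ribosomal proteins 0 were higher and 4 lower, among them mrps-15 at -0.16 ± 0.05. Of 18 genes for mitochondrial translation factors and tRNA synthetases 0 were higher and 4 lower, among them ears-2 at -0.22 ± 0.06.

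Markers of tissues also differed between these groups, where 16.1% of all genes were called higher and 9.46% lower. In ceh-60, 9 of 10 body wall muscle genes (median log2 fold change 0.53), 4 of 5 pharyngeal muscle genes, 7 of 9 intestine genes and 2 of 4 epidermis genes were called higher. Germ line genes were lower in 5 of 14 and early embryo genes in 2 of 7, and 0 of 6 sperm genes were called. The summed level of the muscle list was 1510 to 2048 CPM in wild type and 2279 to 3186 in ceh-60. In RNA of whole animals, more cells of a type and more RNA per cell cannot be told apart, and the part of tissue makeup in the mitochondrial values was not tested.

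The rRNAs were not called on day 1. The small rRNA was at 11.7, 11.3 and 9.52 CPM in wild type and at 16.7, 9.37 and 10.1 in ceh-60. The large rRNA was at 14.1, 13.8 and 12.6 CPM in wild type and at 17.4, 11.8 and 12.8 in ceh-60. For both, the high value in ceh-60 came from library 1, the one with 0.640% nuclear rRNA counts, while the other ceh-60 libraries were within or near the wild type range.

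On day 4 no complex IV mRNA was called between the genotypes. Of the 12 mRNAs, 1 was called, ND1, which was lower in ceh-60, in a comparison that called 24.4% of all genes (16.1% as higher and 8.24% as lower). ND1 was at 236, 241 and 245 CPM in wild type and at 224, 206 and 209.8 in ceh-60, a log2 fold change of -0.17 ± 0.05 (adjusted p = 0.019) with no overlap. COX3 was at 1039, 1067 and 1123 CPM in wild type and at 1129, 1051 and 1149 in ceh-60, a change of 0.04 ± 0.06 (adjusted p = 0.604). These groups overlapped, as did those of COX2, at 0.04 ± 0.05, and of COX1, at 0.17 ± 0.08 (adjusted p = 0.16).

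The median of the 12 mRNAs was -0.01 on day 4, beside 0.00 over all genes. The summed share was 0.554% ± 0.011 in wild type and 0.601% ± 0.025 in ceh-60 without overlap (exact permutation p = 0.1). With the vitellogenin genes left out of the total it was 0.584% and 0.604%, and the groups overlapped. Complex IV still made up a larger part of the mitochondrial mRNA in ceh-60, 66.6% ± 0.75 against 64.5% ± 0.52 (exact permutation p = 0.1). The nuclear complex IV subunits had 4 of 7 higher on day 4 and complex I had 6 of 30 higher, with 0 lower in both. Of the muscle genes 1 of 10 was higher, and of all genes 16.1% were.

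From day 1 to day 4, most mitochondrial mRNAs of wild type animals fell relative to the other genes, but COX3 rose. In wild type 8 of the 12 mRNAs were lower and 1 was higher on day 4, in a comparison that called 54.8% of all genes (28.4% as higher and 26.3% as lower). The median log2 fold change of the 12 was -0.28, beside 0.02 over all genes. As a share of counts, the sum of the 12 went from 0.574% ± 0.031 to 0.554% ± 0.011, with overlapping days (exact permutation p = 0.4). The TMM factors, by which a library's total is multiplied before the CPM is taken, were 0.911 to 0.924 in the day 1 libraries and 1.02 to 1.05 in those of day 4. CYTB fell most, from 1097, 1093 and 1042 CPM to 701, 763 and 709, by 0.57 ± 0.05 on the log2 scale (adjusted p = 8.28e-07). ND4 fell by 0.49 ± 0.05 (adjusted p = 1.33e-06) and ND5 by 0.48 ± 0.07 (adjusted p = 7.29e-05). The day 1 and day 4 libraries of these 3 genes did not overlap.

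COX2 fell by 0.24 ± 0.05 (adjusted p = 0.00114) and ND1 by 0.23 ± 0.05 (adjusted p = 0.00103). COX1 fell by 0.27 ± 0.08 (adjusted p = 0.0148), from 2322, 2204 and 2033 CPM to 1872, 1829 and 1722, and this call was lost without day 1 library 1 or day 4 library 3 (adjusted p up to 0.0704). ATP6 fell by 0.17 ± 0.05 (adjusted p = 0.0107), a call that was lost without day 1 library 1 (adjusted p = 0.0607). ND3 fell by 0.49 ± 0.16 (adjusted p = 0.023) with overlapping groups, and its call was lost without any of 3 libraries, day 1 library 1 and day 4 libraries 2 and 3. COX3, in contrast, was higher on day 4, by 0.25 ± 0.06 (adjusted p = 0.00207), with no overlap between 879 to 927 CPM on day 1 and 1039 to 1123 on day 4.

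In ceh-60 animals COX3 fell with the rest. Of the 12 mRNAs, 10 were lower and 0 higher on day 4, in a comparison that called 52.6% of all genes (28.3% as higher and 24.3% as lower). The median of the 12 was -0.59, beside 0.04 over all genes. The summed share fell from 0.821% ± 0.045 to 0.601% ± 0.025 of counts, without overlap (exact permutation p = 0.1), at TMM factors of 0.971 to 0.976 on day 1 and 1.06 to 1.12 on day 4. COX3 went from 1533, 1421 and 1643 CPM to 1129, 1051 and 1149, a fall by 0.47 ± 0.06 (adjusted p = 2.01e-05). COX1 fell by 0.64 ± 0.09 (adjusted p = 4.05e-05) and COX2 by 0.64 ± 0.05 (adjusted p = 3.11e-07). Every day 4 library of these 3 genes was below every day 1 library.

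CYTB fell by 0.73 ± 0.05, ND5 by 0.72 ± 0.07, ND4 by 0.66 ± 0.05, ND1 by 0.46 ± 0.05 and ATP6 by 0.41 ± 0.05, with adjusted p-values between 1.35e-07 and 1.76e-05. ND6 fell by 0.76 ± 0.23 (adjusted p = 0.0135) and ND3 by 0.54 ± 0.17 (adjusted p = 0.0183). The call of ND6 was lost without day 1 library 1 (adjusted p = 0.0506) and that of ND3 without day 1 library 3 (adjusted p = 0.0539). ND2 and ND4L were not called in either genotype, at -0.28 ± 0.18 and -0.27 ± 0.35 in wild type and at -0.39 ± 0.18 and -0.24 ± 0.36 in ceh-60.

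The test of the difference between these age effects, ceh-60 minus wild type, called 2 of the 12 mRNAs, both of complex IV, where 4.03% of all genes were called (1.82% as higher and 2.22% as lower). The difference was -0.72 ± 0.08 on the log2 scale for COX3 (adjusted p = 0.000289) and -0.41 ± 0.07 for COX2 (adjusted p = 0.00514). Both calls held when each of the 12 libraries was left out in turn. COX1 had a difference of -0.36 ± 0.12 with an adjusted p of 0.129, ATP6 of -0.24 ± 0.07 (0.0813) and ND1 of -0.23 ± 0.07 (0.0786). DESeq2 called 5 of the 12. The day 1 ceh-60 libraries stand above the other 3 groups in the plot of levels by library for all 3 COX genes.

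Both rRNAs rose with age in both genotypes, as COX3 did in wild type, while the other mRNAs that were called fell. The small rRNA rose from 11.7, 11.3 and 9.52 CPM to 24.6, 26.5 and 26.2 in wild type, by 1.25 ± 0.17 on the log2 scale (adjusted p = 3.16e-05). In ceh-60 it rose from 16.7, 9.37 and 10.1 CPM to 27.001, 26.9 and 29.3, by 1.20 ± 0.16 (adjusted p = 4.86e-05). All day 4 libraries were above all day 1 libraries in both genotypes. The large rRNA rose by 0.49 ± 0.15 in wild type (adjusted p = 0.0135, lost without day 4 library 3 at 0.0549) and by 0.79 ± 0.15 in ceh-60 (adjusted p = 0.000605).

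For every 100 mRNA counts, wild type had 0.388 ± 0.016 rRNA counts on day 1 and 0.839 ± 0.061 on day 4 (SD, n = 3), and ceh-60 had 0.307 ± 0.068 and 0.936 ± 0.134. Neither genotype had overlapping days (exact permutation p = 0.1 for each). The test of the difference in the age effect gave -0.05 ± 0.23 for the small rRNA (adjusted p = 0.945) and 0.30 ± 0.21 for the large (adjusted p = 0.511). As a share of counts, replication-dependent histone transcripts, which lack a poly(A) tail, were at 0.00834% to 0.00841% in wild type on day 1 and at 0.00913% to 0.0104% on day 4. In ceh-60 they were at 0.00860% to 0.00913% and at 0.00910% to 0.0107%, with overlap. On the CPM scale the summed histone levels of wild type overlapped too, at 91.1 to 92.1 on day 1 and 89.3 to 98.6 on day 4. Nuclear rRNA was at 0.0851% to 0.134% in wild type on day 1 and at 0.0575% to 0.0759% on day 4. In ceh-60 it was at 0.0323% to 0.640% and at 0.0531% to 0.0558%, with overlap. Small nucleolar RNAs were higher on day 4 as a share of counts, without overlap in both genotypes. Their share went from 0.00611% to 0.00661% on day 1 to 0.00684% to 0.00702% on day 4 in wild type. In ceh-60 it went from 0.00639% to 0.00649% on day 1 to 0.00667% to 0.00724% on day 4. These shares are not scaled by the TMM factors, which were higher on day 4 in both genotypes. They thus do not tell whether small nucleolar RNAs rose on the CPM scale used for the mitochondrial rRNAs. The part of poly(A) capture in the rise of the mitochondrial rRNAs was not tested.

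The nuclear subunits of the respiratory chain were all lower on day 4 in both genotypes, with 30 of 30 for complex I, 7 of 7 for complex III, 7 of 7 for complex IV and 11 of 11 for ATP synthase. Their medians in wild type were -0.42, -0.43, -0.37 and -0.34 on the log2 scale, and in ceh-60 -0.41, -0.48, -0.39 and -0.43. Over all genes 28.4% were called higher and 26.3% lower in wild type, and 28.3% and 24.3% in ceh-60. COX3 in wild type thus moved the other way from all 7 tested nuclear subunits of its complex, such as cox-6B at -0.43 ± 0.04 and cox-6C at -0.56 ± 0.05.

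Genes of mitochondrial ribosomal proteins were lower in 55 of 65 cases and higher in 1 in wild type, and lower in 53 and higher in 0 in ceh-60. mrpl-12 was at -0.89 ± 0.05 in wild type and -0.63 ± 0.05 in ceh-60, while both mitochondrial rRNAs were higher in the same libraries. Of 5 genes for mtDNA replication and transcription, 3 were lower and 1 higher in either genotype. The higher one was polg-1, which encodes the mtDNA polymerase, at 0.33 ± 0.05 in wild type and 0.29 ± 0.05 in ceh-60. mma-1 was lower, at -0.48 ± 0.04 in wild type and -0.36 ± 0.04 in ceh-60. Of 18 translation factor and tRNA synthetase genes, 13 were lower in wild type and 11 in ceh-60, with 1 higher in each.

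Tissue markers moved with age as well: all 10 body wall muscle genes were lower in both genotypes, with medians of -1.38 and -1.80. Their summed level fell from 1510 to 2048 CPM on day 1 to 585 to 698 on day 4 in wild type, and from 2279 to 3186 to 676 to 807 in ceh-60. The summed level of the epidermis list fell from 451 to 706 CPM on day 1 to 49.7 to 79.2 on day 4 in wild type, and from 813 to 1166 to 67.2 to 86.7 in ceh-60, with 2 of 4 genes called lower in each. That of the intestine list went from 2154 to 2328 CPM to 987 to 1080 in wild type, but from 4059 to 5051 to 3866 to 4099 in ceh-60. Germ line genes were higher in 7 and lower in 4 of 14 in wild type, and higher in 6 and lower in 4 in ceh-60. Of all genes, 28.4% were called higher and 26.3% lower in wild type, and 28.3% and 24.3% in ceh-60. All 6 tested sperm genes were lower on day 4 in ceh-60 and 1 of 6 in wild type. The part of these shifts in the mitochondrial values was not tested.

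**Figure D2:**
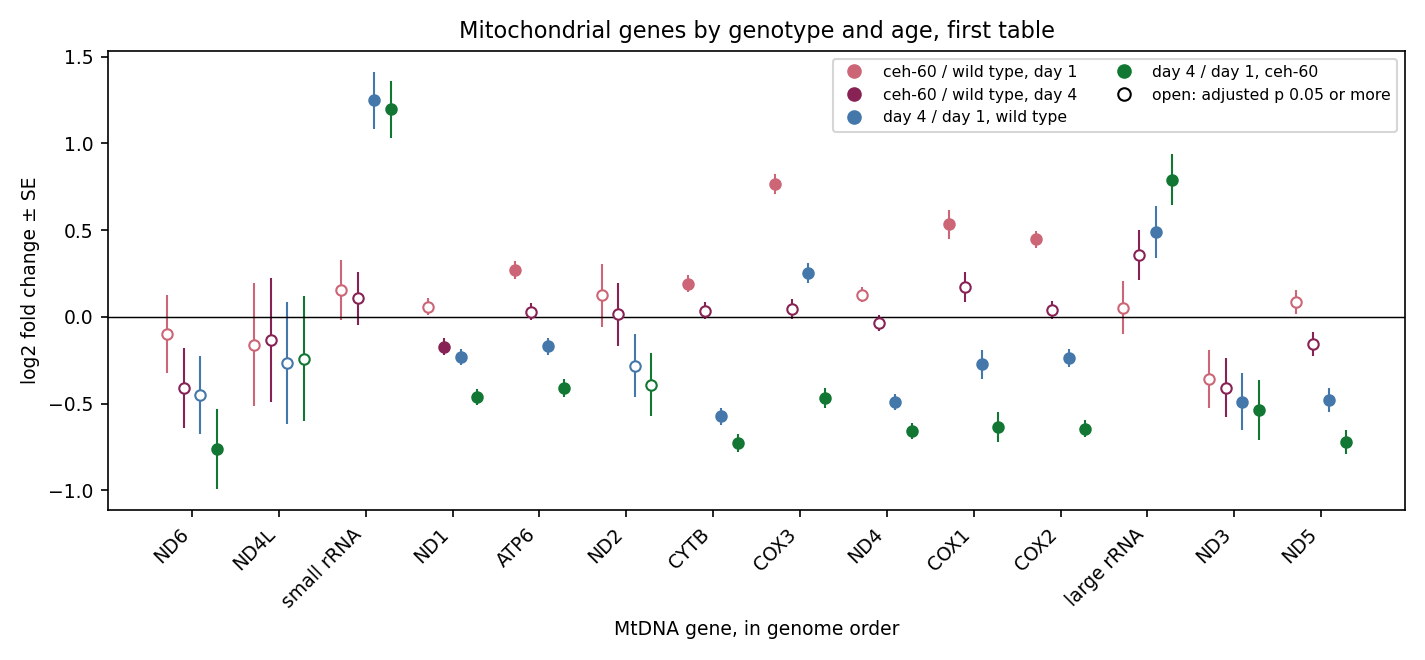
Log2 fold changes with standard errors of 14 mitochondrial genes in 4 comparisons of the first table (filled points passed an adjusted p of 0.05, open points did not). COX3 rises with age in wild type at 0.25 and falls in ceh-60 at -0.47, while both rRNAs rise in both genotypes.

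In the second table COX1 and COX3 varied more between the libraries of a group than between the group means. COX3 was at 1573, 802 and 805 CPM in libraries 1, 2 and 3 of pqm-1(ok485) and at 1565, 755 and 833 in those of pqm-1(rhd90). It was at 1609.7, 979 and 933 CPM in the ok485 double mutant and at 1982, 962 and 1081 in the rhd90 double mutant. In every group the library numbered 1 was thus the high one, at 1.68 to 1.97 times the mean of the other two.

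COX1 showed the same split, at 1.51 to 1.75 times the mean of libraries 2 and 3, and COX2 a smaller one, at 1.16 to 1.38 times. Their levels in library 1 of pqm-1(ok485), for example, were 2824 and 922 CPM, against 1766 and 1809 for COX1 and 679.9 and 661 for COX2. The split was smaller or not seen in the mRNAs of the other complexes, and the large rRNA showed it about as much as COX2. With number 1 set against numbers 2 and 3 over the 4 groups, the log2 difference was 0.92 ± 0.05 for COX3 and 0.67 ± 0.05 for COX1. It was 0.37 ± 0.04 for COX2 and 0.23 ± 0.05 for ATP6, but 0.12 ± 0.04 for CYTB, -0.08 ± 0.04 for ND1 and -0.01 ± 0.04 for ND5. The large rRNA had a difference of 0.34 ± 0.07 and the small rRNA of 0.21 ± 0.07. This contrast was drawn up after the values had been seen and is given as a description.

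Complex IV made up 64.9% to 67.7% of mitochondrial mRNA counts in the 4 libraries numbered 1 and 55.1% to 59.1% in the other 8. In the first table the library numbered 1 was also the highest of each group, but by far less. Libraries 1, 2 and 3 were at 60.03%, 59.4% and 59.7% in wild type on day 1 and at 65.1%, 64.2% and 64.3% on day 4. In ceh-60 they were at 66.7%, 65.8% and 66.4% on day 1 and at 67.5%, 66.3% and 66.1% on day 4. In the second table, the term for number 1 called 2221 of 13324 genes (16.7%), the term for number 2 called 925 and that for number 3 called 8. In the first table the terms for numbers 1, 2 and 3 called 0, 3 and 79 of 13137 genes.

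Of the nuclear complex IV genes, 0 of 7 were called by the term for number 1. Their summed level was 1529 to 1756 CPM in the libraries numbered 1 and 1596 to 1734 in the other 8. The summed nuclear subunits of ATP synthase and of complex III were lowest in library 1 of every group, those of complex I and complex IV were not. For ATP synthase, libraries 1, 2 and 3 were at 6495, 7301 and 7758 CPM in pqm-1(ok485). They were at 7180, 7714 and 7256 in the rhd90 double mutant. Body wall muscle genes were lower in 9 of 10, with 1031 to 2285 CPM summed in the libraries numbered 1 and 1592 to 3320 in the others, and the part of this in the COX values was not tested. Of all 13324 genes tested, the term for number 1 called 1280 as higher and 941 as lower. Sperm genes were lower in 6 of 7, epidermis genes in 4 of 5 (the other one was higher) and germ line genes in 2 of 14, and early embryo genes were higher in 3 of 7. Intestine genes were higher in 3 of 9, led by mtl-2 at 3.18 ± 0.19. The labels do not say what the number stands for, and whether it marks a batch was not tested.

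**Figure D3:**
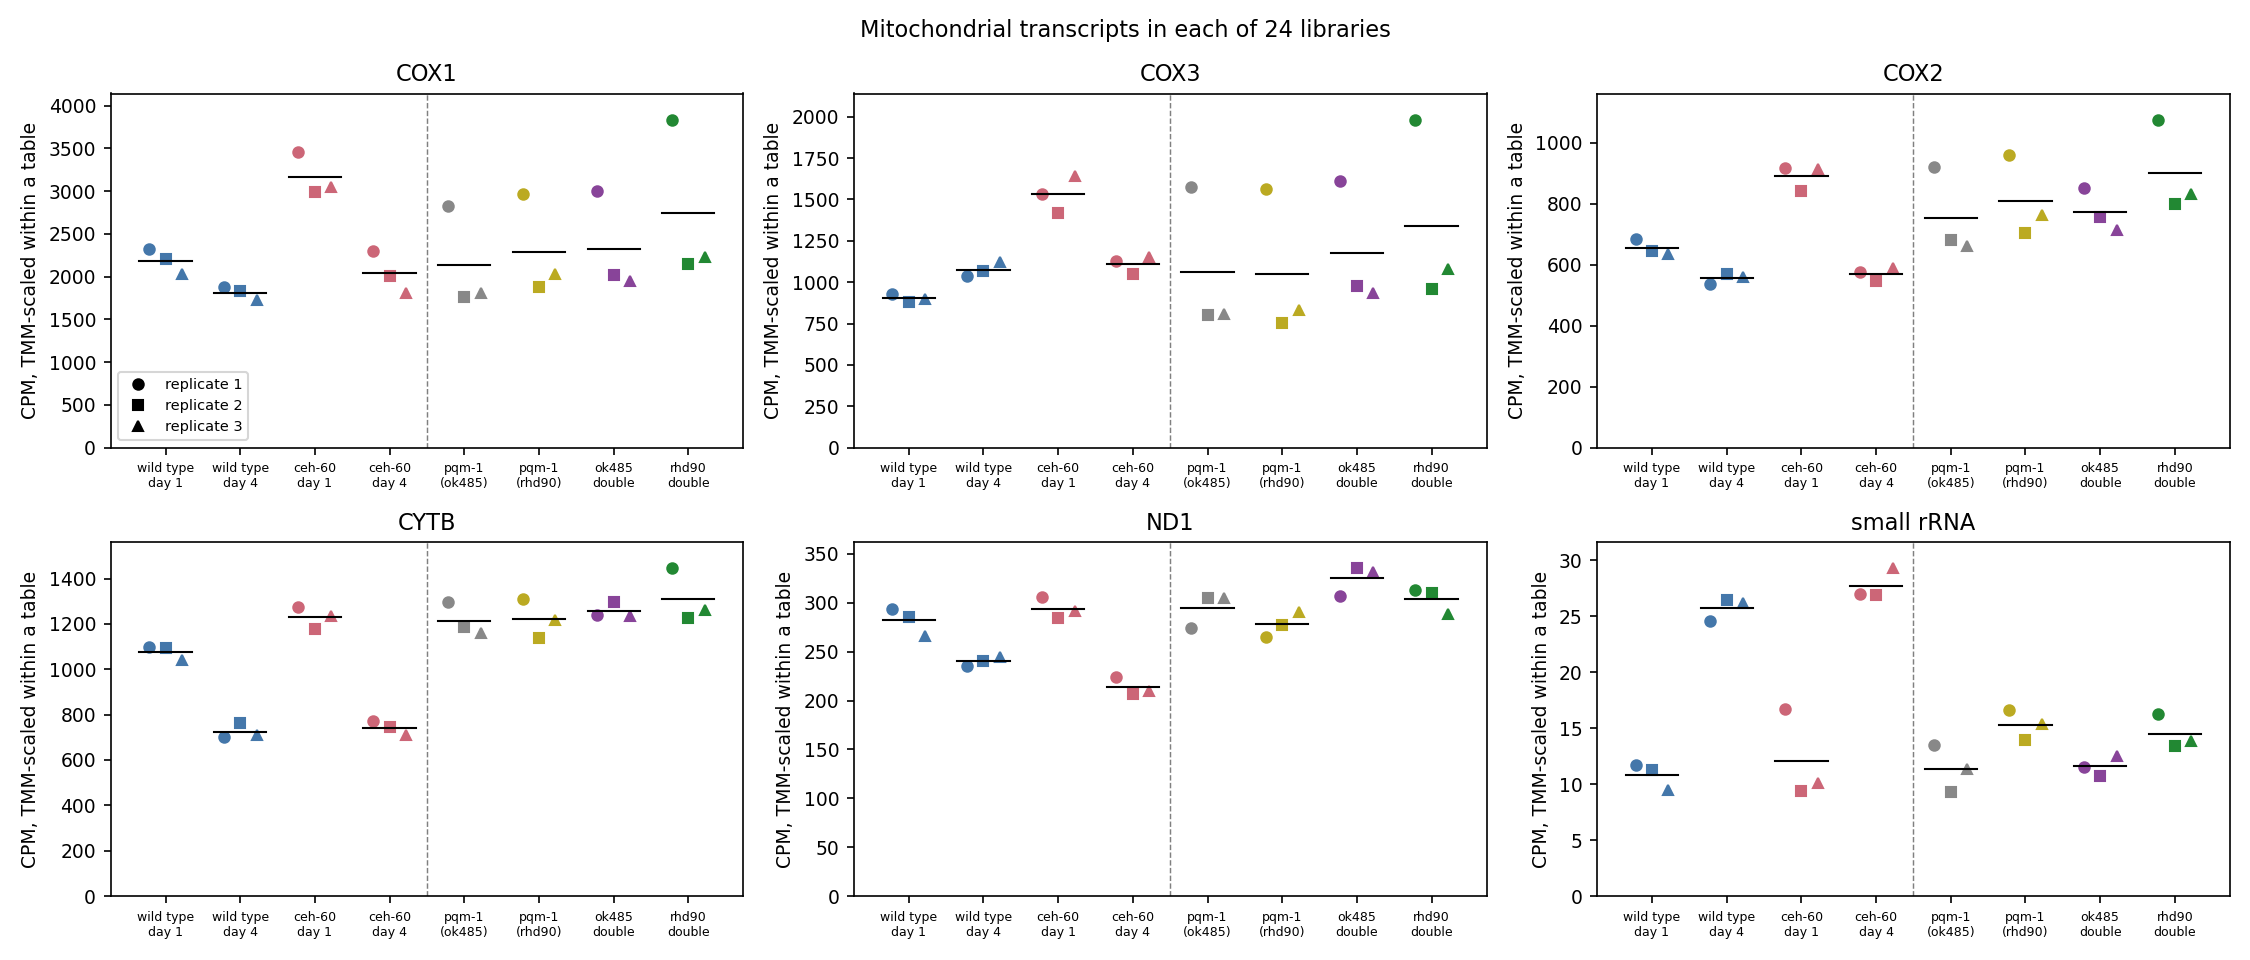
Levels of 6 mitochondrial transcripts in each of 24 libraries, in CPM scaled within a table (markers show the replicate number, black bars the group mean, and the dashed line separates the tables). In the second table the library numbered 1 of each group is high for COX1 and COX3, at 1.51 to 1.97 times the mean of the other libraries, while ND1 shows no such split.

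None of the 12 mRNAs was called for the ceh-60 effect within either pqm-1 allele without a replicate block and with all libraries. In pqm-1(ok485), 0 of 12 were called by edgeR and by DESeq2 and 1 had an unadjusted p under 0.05, where edgeR called 8.97% of all genes (4.76% as higher and 4.21% as lower). In pqm-1(rhd90) the counts were likewise 0, 0 and 1, where 11.9% of all genes were called (9.79% as higher and 2.07% as lower). The medians of the 12 were 0.08 and 0.13, beside -0.01 and 0.00 over all genes. COX3 had a log2 fold change of 0.15 ± 0.36 in pqm-1(ok485) and 0.35 ± 0.36 in pqm-1(rhd90), where the standard error in the first table was 0.06.

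Without the 4 libraries numbered 1, the standard error of COX3 fell to 0.07. The change was then 0.25 ± 0.07 in pqm-1(ok485) (adjusted p = 0.0494) and 0.36 ± 0.07 in pqm-1(rhd90) (adjusted p = 0.00556), and COX3 was the only mitochondrial gene called in either. This fit called 1082 and 1403 of all genes for the ceh-60 effect in these alleles, against 1195 and 1581 with all libraries. When the libraries of a number were set against each other, the log2 ratios of COX3 were 0.34, 0.35 and 0.38 in pqm-1(rhd90) and 0.03, 0.29 and 0.21 in pqm-1(ok485). With the replicate number as a block, COX3 in pqm-1(rhd90) was at 0.36 ± 0.06 (adjusted p = 0.000928) and COX1 at 0.24 ± 0.06 (adjusted p = 0.0146). There the numbers did not pair the libraries by the rule used, with correlations of 0.38, 0.38 and 0.014. In pqm-1(ok485), where the numbers paired the libraries by the rule used, the block left 0 of 12 called, with an adjusted p of 0.0713 for COX3.

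The summed mRNA share was 0.644% ± 0.136 in pqm-1(ok485) and 0.733% ± 0.102 in its double mutant, and 0.668% ± 0.139 in pqm-1(rhd90) and 0.829% ± 0.194 in its double mutant. Both pairs overlapped, with exact permutation p-values of 0.5 and 0.4. By number, the shares in pqm-1(ok485) and its double mutant were 0.801% and 0.850%, 0.578% and 0.687%, and 0.553% and 0.663%. In pqm-1(rhd90) and its double mutant they were 0.825% and 1.05%, 0.559% and 0.700%, and 0.620% and 0.736%. The double mutant was thus higher in 3 of 3 pairs with either allele, and the paired exact permutation test gave p = 0.25 for each, the smallest that 3 pairs allow. By the rule used, the numbers paired the libraries for ok485 but not for rhd90. Neither comparison overlapped without the libraries numbered 1 (exact permutation p = 0.333, the smallest for 2 against 2).

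Vitellogenin counts differed here too, and without them the mean shares were 0.710% and 0.734% for ok485 and 0.739% and 0.831% for rhd90. On that scale the double mutant was higher in 2 of 3 pairs for ok485 and in 3 of 3 for rhd90, and without the libraries numbered 1 the groups again did not overlap. Muscle genes were higher in 9 of 10 in ceh-60 against wild type, where 16.1% of all genes were called higher. Here they were higher in 0 of 10 and 1 of 10, and nuclear complex IV genes in 0 of 7 and 1 of 7. Over all genes 4.76% and 9.79% were called higher here. Summed muscle levels varied by number, at 1772, 2692 and 3320 CPM in pqm-1(ok485) and 2285, 3121 and 2678 in its double mutant. They were at 1031, 2094 and 1592 CPM in pqm-1(rhd90) and 1291, 2151 and 1763 in its double mutant.

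The tests of whether the ceh-60 effect differed from that in wild type called 0 of the 12 mRNAs for either allele, where 4.43% of all genes were called for ok485 (0.265% as higher and 4.17% as lower) and 0.272% for rhd90 (0.0809% as higher and 0.191% as lower). By DESeq2 the counts were 0 and 0, and 1 and 0 had an unadjusted p under 0.05. For COX3 the differences were -0.58 ± 0.42 for ok485 (adjusted p = 0.395) and -0.43 ± 0.42 for rhd90. Without the libraries numbered 1, 3 mRNAs were called as less raised by loss of ceh-60 in ok485 than in wild type and 0 for rhd90. They were COX3 at -0.53 ± 0.09 (adjusted p = 0.00944), COX2 at -0.33 ± 0.08 (adjusted p = 0.0373) and COX1 at -0.40 ± 0.10 (adjusted p = 0.0467). That fit called 438 and 38 of all genes. With all libraries and a block for the number within each table, COX3 was called for both alleles. It was at -0.56 ± 0.09 for ok485 (adjusted p = 0.000714) and -0.42 ± 0.09 for rhd90 (0.0173). COX1 (-0.38 ± 0.09) and COX2 (-0.37 ± 0.08) were called there for ok485 only, and 1791 and 332 of all genes were called. These tests set the effect in one table against that in the other, so that table and genotype cannot be told apart.

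**Figure D4:**
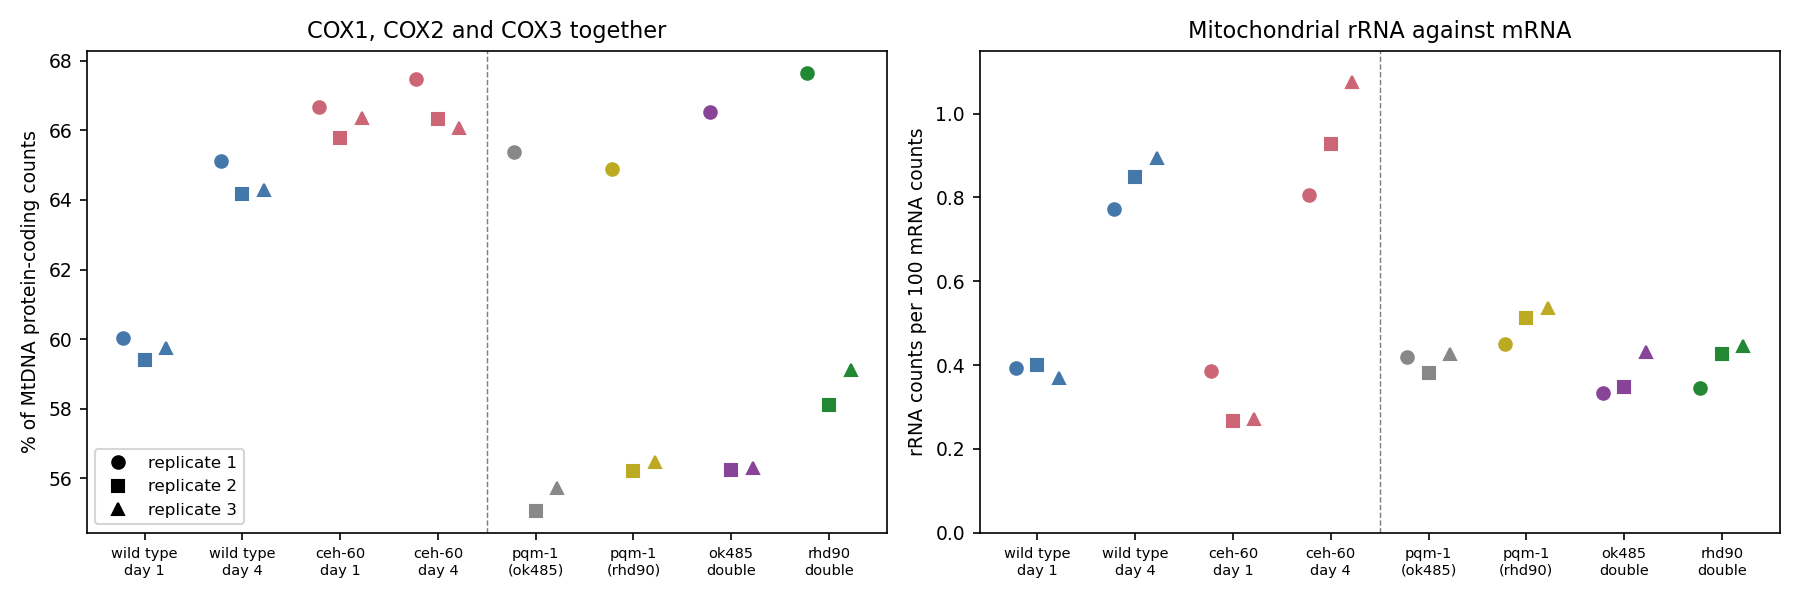
Left, the share of COX1, COX2 and COX3 in mitochondrial mRNA counts, in percent; right, rRNA counts per 100 mRNA counts (markers show the replicate number, the dashed line separates the tables, and the left axis does not start at 0). The 4 libraries numbered 1 of the second table lie at 64.9% to 67.7% and the other 8 at 55.1% to 59.1%, and the day 4 libraries are highest in the right panel.

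No mitochondrial mRNA was called between the pqm-1 alleles by edgeR without a replicate block and with all libraries. pqm-1(rhd90) against pqm-1(ok485) had 0 of 12 called, by DESeq2 too, and 1 with an unadjusted p under 0.05, where edgeR called 7.39% of all genes (1.67% as higher and 5.72% as lower). In the ceh-60 background the counts were 0, 0 and 1, where 14.3% of all genes were called (7.89% as higher and 6.37% as lower). Whether loss of ceh-60 acted differently under the 2 alleles was tested too, with 0 of 12 called by edgeR and by DESeq2 and 0 with an unadjusted p under 0.05, where 0.345% of all genes were called (0.315% as higher and 0.03% as lower). The mRNAs called without the libraries numbered 1 were 1 between the single mutants, 0 in the ceh-60 background and 0 for this last test. Of all genes, 1490, 1956 and 30 were then called, against 984, 1900 and 46 with all libraries. The summed share differed by 0.0239 percentage points between the single mutants and by 0.0960 between the double mutants (exact permutation p = 0.6 and 0.5), and by 0.0237 and 0.0430 without those libraries.

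The small rRNA was at 13.5, 9.34 and 11.4 CPM in pqm-1(ok485) and at 16.6, 13.9 and 15.3 in pqm-1(rhd90), with no overlap. Its log2 fold change was 0.42 ± 0.13 with an adjusted p of 0.0768 by edgeR. With the replicate number as a block, where the numbers paired these libraries, it was 0.42 ± 0.09 (adjusted p = 0.00614) and ATP6 was also called, at 0.24 ± 0.07 (adjusted p = 0.033). Without the libraries numbered 1 the small rRNA was at 0.50 ± 0.13 (adjusted p = 0.029) and ATP6 at 0.23 ± 0.06 (adjusted p = 0.043). In the double mutants the small rRNA was at 11.5, 10.7 and 12.6 CPM with ok485 and at 16.3, 13.4 and 13.8 with rhd90, without overlap. No rRNA was called between them without a block. With the block the small rRNA was at 0.32 ± 0.09 (adjusted p = 0.0213), and ATP6 (0.26 ± 0.07), COX1 (0.21 ± 0.06) and COX2 (0.21 ± 0.06) were called. The numbers did not pair these libraries by the rule used (0.31, 0.22 and -0.007).

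Against the groups of the first table, where table and pqm-1 genotype cannot be told apart, both pqm-1 single mutants had more CYTB, ND4 and ND5 and less ND6 than wild type. pqm-1(ok485) had 3 of 12 mRNAs higher and 3 lower than wild type, where 47.7% of all genes were called (26.7% as higher and 20.9% as lower). CYTB was at 0.22 ± 0.06 (adjusted p = 0.00909), ND4 at 0.27 ± 0.06 (0.00211) and ND5 at 0.21 ± 0.07 (0.0218), although the libraries of ND5 overlapped between the groups. ND4L was at -1.44 ± 0.35 (adjusted p = 0.00373), ND6 at -1.11 ± 0.24 (0.00184) and ND3 at -0.71 ± 0.17 (0.00377, lost without wild type library 1 at 0.0546).

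The counts behind these low genes were small. ND6 had 370, 206 and 185 counts in the wild type libraries and 183, 80 and 106 in those of pqm-1(ok485). ND4L had 51, 29 and 17 in wild type and 14, 10 and 12 in pqm-1(ok485). Wild type library 1 was the highest for both, and all pqm-1(ok485) libraries were below all wild type libraries in raw counts. In CPM, wild type library 1 was at 1.77 times the mean of wild type libraries 2 and 3 for ND6. It was at 2.09 times for ND4L and 1.38 times for ND3. When the libraries numbered 1 of the second table were left out, 4 mRNAs were higher in pqm-1(ok485) and 5 lower: ND1 was also called higher, at 0.19 ± 0.05, and COX1 and ATP6 were also called lower, at -0.21 ± 0.07 and -0.16 ± 0.06. That fit called 5807 of all genes here, against 6480 with all libraries.

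pqm-1(rhd90) had 4 mRNAs higher than wild type and 1 lower, where 28.2% of all genes were called (17.6% as higher and 10.5% as lower). ND4 was at 0.34 ± 0.06 (adjusted p = 0.000627), CYTB at 0.26 ± 0.06 (0.00566), ND5 at 0.25 ± 0.07 (0.0145) and COX2 at 0.38 ± 0.12 (0.0271). ND6 was lower, at -0.72 ± 0.24 (adjusted p = 0.0328). Both rRNAs were higher, the small at 0.57 ± 0.18 (adjusted p = 0.023) and the large at 0.57 ± 0.16 (adjusted p = 0.0134). The calls of COX2, ND6 and both rRNAs were each lost without one of 2 to 4 single libraries, with adjusted p-values of up to 0.266. Without the libraries numbered 1 of the second table the 4 mRNAs and the large rRNA were called higher, and ND6 (adjusted p = 0.0667) and the small rRNA (0.0686) were not called. That fit called 3995 of all genes here, against 3826 with all libraries.

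Against ceh-60 animals of the first table, the ok485 double mutant had ND1 and ND4 higher and ND6 lower, 3 of 12 in a comparison that called 14.0% of all genes (8.21% as higher and 5.76% as lower). The rhd90 double mutant had ND4 and ND5 higher, 2 of 12 where 9.85% were called (6.87% as higher and 2.98% as lower). ND4 was at 0.19 ± 0.06 (adjusted p = 0.037) and 0.27 ± 0.06 (adjusted p = 0.00933) in these comparisons. Each of the 5 calls was lost without one of 2 to 5 single libraries. Without the libraries numbered 1, COX3 was lower than in ceh-60 alone in both double mutants, at -0.62 ± 0.07 (adjusted p = 0.00011) and -0.51 ± 0.07 (0.000464), and COX1 at -0.61 ± 0.07 (0.000209) and -0.46 ± 0.07 (0.00193). The mRNAs called were then 3 higher and 4 lower for the ok485 double mutant and 1 higher and 2 lower for the rhd90 double mutant. Of all genes, 2811 and 1104 were then called, against 1898 and 1338 with all libraries.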

How the data were processed

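The 24 samples are RNA-seq of whole animals. Total RNA (Trizol, 1 µg) went into mRNA libraries of a TruSeq v2 kit, per the labels' protocols. The kit is known not to mark strand. STAR 2.5.4 is the aligner that the submitters' processing notes name. The deposited values are raw counts per gene, made with featureCounts 1.5.2 and WormBase release 260, per the file headers. Counting ignored strand and dropped reads that fit several places or overlap several genes, so reads across neighbouring mitochondrial genes are lost. Read length is not given in the sources used here.

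edgeR 4.0.16 in R 4.3.3 (filterByExpr by group, TMM, quasi-likelihood F-tests, Benjamini-Hochberg adjustment over all genes tested, threshold 0.05) was fitted to the 12 libraries of the first table (13137 genes), the 12 of the second (13324) and the 18 of day 1 (13589), after tests on simulated data. SEs were derived from the F statistic. Of the 36 members, 14 passed the filter on low counts, and no tRNA gene did. Shares were compared by two-sided exact permutation tests. Alternatives were DESeq2 1.42.0, RLE factors, scaling without MtDNA or vitellogenin rows, no filter, only the compared groups, a block for the replicate number, and each library left out in turn. All members are described, and from each other list up to 2 rising and 2 falling genes with the smallest p could be named. Members and lists were chosen with earlier results of these data known.

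The titles share replicate numbers between groups. Numbers were taken to pair libraries where all 3 correlations of same-numbered deviations from the group means were over 0.1. This held between pqm-1(ok485) and its double mutant (0.49, 0.45 and 0.17) and between the pqm-1 single mutants (0.47, 0.39 and 0.12). For pqm-1(rhd90) and its double mutant they were 0.38, 0.38 and 0.014. The fits without the libraries numbered 1, the block within each table, the paired tests of shares and the tests by number were added after the data had been seen.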

Additional observations from a re-analysis of the deposited data

Results flagged for a closer look

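The change of 2 mRNAs with age differed between the genotypes by a test of that difference in edgeR with Benjamini-Hochberg adjustment. For COX3 the change from day 1 to day 4 was 0.25 ± 0.06 on the log2 scale in wild type and -0.47 ± 0.06 in ceh-60, a difference of -0.72 (adjusted p = 0.000289). For COX2 it was -0.24 ± 0.05 in wild type and -0.64 ± 0.05 in ceh-60, a difference of -0.41 (adjusted p = 0.00514).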

How the results depend on the processing

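Scaling without the MtDNA rows changed no call in 224 tests of 14 genes in 16 comparisons, DESeq2 added 6 calls and RLE factors 1. The number of mRNAs called moved as follows. Without the filter it was 2 for the genotypes on day 4, 6 for the difference in age effects (5 with DESeq2), 5 for the ok485 double mutant against ceh-60 and 1 for the rhd90 double mutant. With a replicate block it was 3 for the genotypes on day 4, 2 for ceh-60 loss in pqm-1(rhd90), 1 for the single mutants against each other, 3 for the double mutants against each other, 5 for the ok485 double mutant against ceh-60 and 1 for the ok485 interaction with ceh-60. With the block within each table it was 9 and 5 for the ok485 and rhd90 double mutants against ceh-60, and 3 and 1 for the ok485 and rhd90 interactions. With only the compared groups it was 5 and 1 for these double mutants. Without the libraries numbered 1 it was 1 for ceh-60 loss in either pqm-1 allele, 1 for the single mutants against each other, 7 for the ok485 double mutant against ceh-60 and 3 for the ok485 interaction. COX1 in pqm-1(ok485) against wild type then changed from 0.00 to -0.21. Only the compared groups could not be fitted for the interactions within a table. The causes were not tested.

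The difference in mRNA share on day 4 was 0.0201 percentage points without vitellogenin counts. With each library left out in turn, the mRNAs called ranged from 4 to 6 between the genotypes on day 1 and from 1 to 2 on day 4, from 6 to 10 and 9 to 10 for age in wild type and ceh-60, and from 2 to 4 for their difference. They were 0 throughout within the second table and for both cross-table interactions, 6 to 7 and 3 to 5 for pqm-1(ok485) and pqm-1(rhd90) against wild type, and 0 to 3 and 0 to 2 for the double mutants against ceh-60.

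Over all genes, counts of calls differed by more than 1.5 times in these cases. The difference in age effects had 530 and 905 without the filter. ceh-60 loss in pqm-1(ok485) had 1195 and 2161 with the block, the single mutants 984 and 2072 (616 with only the compared groups and 1490 without the libraries numbered 1), and the double mutants 1900 and 3274. The allele interaction had 46, and 116 with DESeq2, 96 without the filter, 241 with the block and 30 without the libraries numbered 1. pqm-1(ok485) against wild type had 6480 and 4193 with only the compared groups. The double mutants against ceh-60 had 1898 and 1338, and 2917 and 2561 with the block within each table. The ok485 interaction had 602, and 912 with DESeq2, 943 and 1791 with the blocks and 388 with only the compared groups. The rhd90 interaction had 37, and 102, 151, 61 and 332 with DESeq2, no filter and the blocks. Depth limits ND4L, ND3, ND2, ND6 and the rRNAs most.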
